A study of Sus scrofa with 60 samples.

Results

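Translation initiation and elongation factors, the proteins that bring ribosome, mRNA and charged tRNA together, were read in pig liver by 64 of the 24123 probe-sets of an Affymetrix porcine array. A probe-set is a group of short oligonucleotides that reads 1 transcript. Members were all probe-sets whose annotation lists a single gene with a symbol made of EIF or EEF followed by a digit, leaving out the EIF2AK kinases, which act on eIF2 from outside. They stand for 41 of the 6765 genes named on the array, of which 25 have 1 probe-set and 16 have several. Another 6 probe-sets list EIF2S3, EIF3G or EIF4EBP3 together with a second gene and were left out. EEF2, EEF2K, EIF4EBP1, EIF5, EIF2B5 and EEF1A2 are not analysed here.

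The livers came from offspring of German Landrace gilts that received an adequate protein (AP) diet in gestation, with 15 fetuses at 94 days post conceptionem (dpc) and 15, 14 and 16 animals at 1, 28 and 188 days post natum (dpn). Each animal had 1 array, 60 in all, and offspring of the high protein diet were not analysed here. By the study's methods fetuses and born animals belonged to different experiments, and animals were sib pairs balanced for sex. The labels give neither litter nor sex, so animals were treated as independent. In period I (94 dpc to 1 dpn) stage and experiment cannot be told apart. Period II runs from 1 to 28 dpn and period III from 28 to 188 dpn. The study took light and heavy sibs at 94 dpc and 1 dpn, and animals of middling growth at 28 and 188 dpn. Piglets kept beyond 1 dpn were cross-fostered. Newborns were killed by injection, and older animals by electronarcosis and bleeding. Overnight fasting preceded sampling at both older stages, and no fast is stated for the newborns. In period II age cannot be told apart from fasting, fostering, killing method and choice of animals.

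Initiation begins when eIF2, loaded with GTP by its exchange factor eIF2B, carries the initiator tRNA to the small ribosomal subunit, on which eIF1, eIF1A and eIF3 sit. The eIF4 factors bind the cap of the mRNA and unwind its leader, the subunit scans to the start codon, and eIF5B joins the large subunit. eEF1A then delivers charged tRNAs and is recharged by the eEF1B subunits, and in the liver this machinery makes most plasma proteins.

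Levels are given as log2(intensity + 16), and a change is the later minus the earlier stage on that scale with its standard error (SE). A change was called at an adjusted p below 0.05 from limma, with Benjamini-Hochberg adjustment over all probe-sets tested in the period. Where a gene has several probe-sets, the brightest one other than a control stands for it. As liver was measured in bulk, fewer cells of a type and less RNA per cell cannot be told apart.

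The hepatocyte markers averaged between 14.79 and 15.63 in every animal of all 4 stages, while 6 of 8 fell in period II and 6 of 8 rose in period III. The erythroid markers, of which 6 of 6 fell in period I, averaged 10.22 to 12.28 over the fetuses and 7.18 to 9.34 over the newborns. The actin control's 3′ signal over its 5′ signal (log2 ratio), a measure of RNA quality, averaged 2.29, 1.76, 3.54 and 4.01 at the 4 stages in order of age. The deposited scaling holds the trimmed mean and not the median, and mean array medians fell from 170 at 94 dpc to 149, 117 and 111. Centring each array on its median therefore moved the median change of all probe-sets up by 0.17 in period I, 0.32 in period II and 0.06 in period III, and quantile normalization moved it up by 0.11, 0.13 and 0.05.

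Nearly all factor probe-sets differed among the stages, as did nearly all probe-sets of the array. Of 59 tested over the 60 arrays 56 were called (94.9%), beside 93.2% of the 13844 probe-sets tested. The stage of the highest mean was 94 dpc for 30 of the 56 (53.6%), beside 45.4% of all probe-sets called. It was 1 dpn for 12 (21.4%, beside 20.8%), 28 dpn for 1 (1.79%, beside 13.7%) and 188 dpn for 13 (23.2%, beside 20.1%).

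Across birth most of the called factor mRNAs fell. In period I 39 of 58 tested factor probe-sets were called (67.2%), beside 65% of all probe-sets: 10 rose (17.2%, beside 23.9%) and 29 fell (50%, beside 41.1%). Counted once per gene, 23 of 40 fell (57.5%, beside 35.6% of all 5206 genes tested), 5 rose (12.5%, beside 29.8%) and 12 were not called, with a median change of -0.26, beside -0.06 over all genes. The counts by role given further on have the same shares of all genes as their background. With median centring 18 fell and 10 rose, and with quantile normalization 23 fell and 6 rose. Rises then made up 35.7% and 20.7% of the called genes, beside 52.7% and 47% of the called probe-sets of the array. The units of this comparison differ, here and in the later periods, because shares of all genes are not given for the other scalings. Changes of at least 2-fold were called for 9 probe-sets (15.5%, beside 13.5%). Fetuses and newborns had no overlap for 11 factor probe-sets (19%, beside 9.99%), and 10 were lower in every newborn than in any fetus (17.2%, beside 5.53%).

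In period II, over suckling, 38 of 58 factor probe-sets were called (65.5%, beside 67.5%): 9 rose (15.5%, beside 28.5%) and 29 fell (50%, beside 39%). At least 2-fold changes were called for 9 (15.5%, beside 18.3%). Newborns and 28 dpn animals had no overlap for 9 (15.5%, beside 11.4%), and 6 were lower in every older animal (10.3%, beside 6.83%). Per gene 21 fell (52.5%, beside 35.7% of all genes), 6 rose (15%, beside 32.2%) and 13 were not called, with a median change of -0.23, beside -0.03 over all genes. This split rested on the scaling: with median centring 12 genes fell and 13 rose around a median of 0.08, and with quantile normalization 22 fell and 5 rose. Rises then made up 52% and 18.5% of the called genes, beside 65.9% and 52.6% of the called probe-sets of the array. The median change of all probe-sets was 0.22 with median centring. The actin ratio of 1 and 28 dpn animals did not overlap, and with it as a covariate only 6 genes were called as fallen. Because the ratio separates these stages, such a fit cannot tell stage and ratio well apart.

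Changes in period III were smaller, with 0 called at 2-fold or more, beside 3.63% of all probe-sets. Of 58 probe-sets 26 were called (44.8%, beside 39.6%): 18 rose (31%, beside 15.5%) and 8 fell (13.8%, beside 24.1%). The stages had no overlap for 1 (1.72%, beside 1.24%), and 0 were lower in every older animal, beside 0.756%. Per gene 11 rose (27.5%, beside 17.5% of all genes) and 7 fell (17.5%, beside 28.3%), against 14 and 4 with median centring and 9 and 8 with quantile normalization. Under these scalings rises made up 77.8% and 52.9% of the called genes, beside 51.1% and 47.7% of the called probe-sets of the array.

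**Figure D1:**
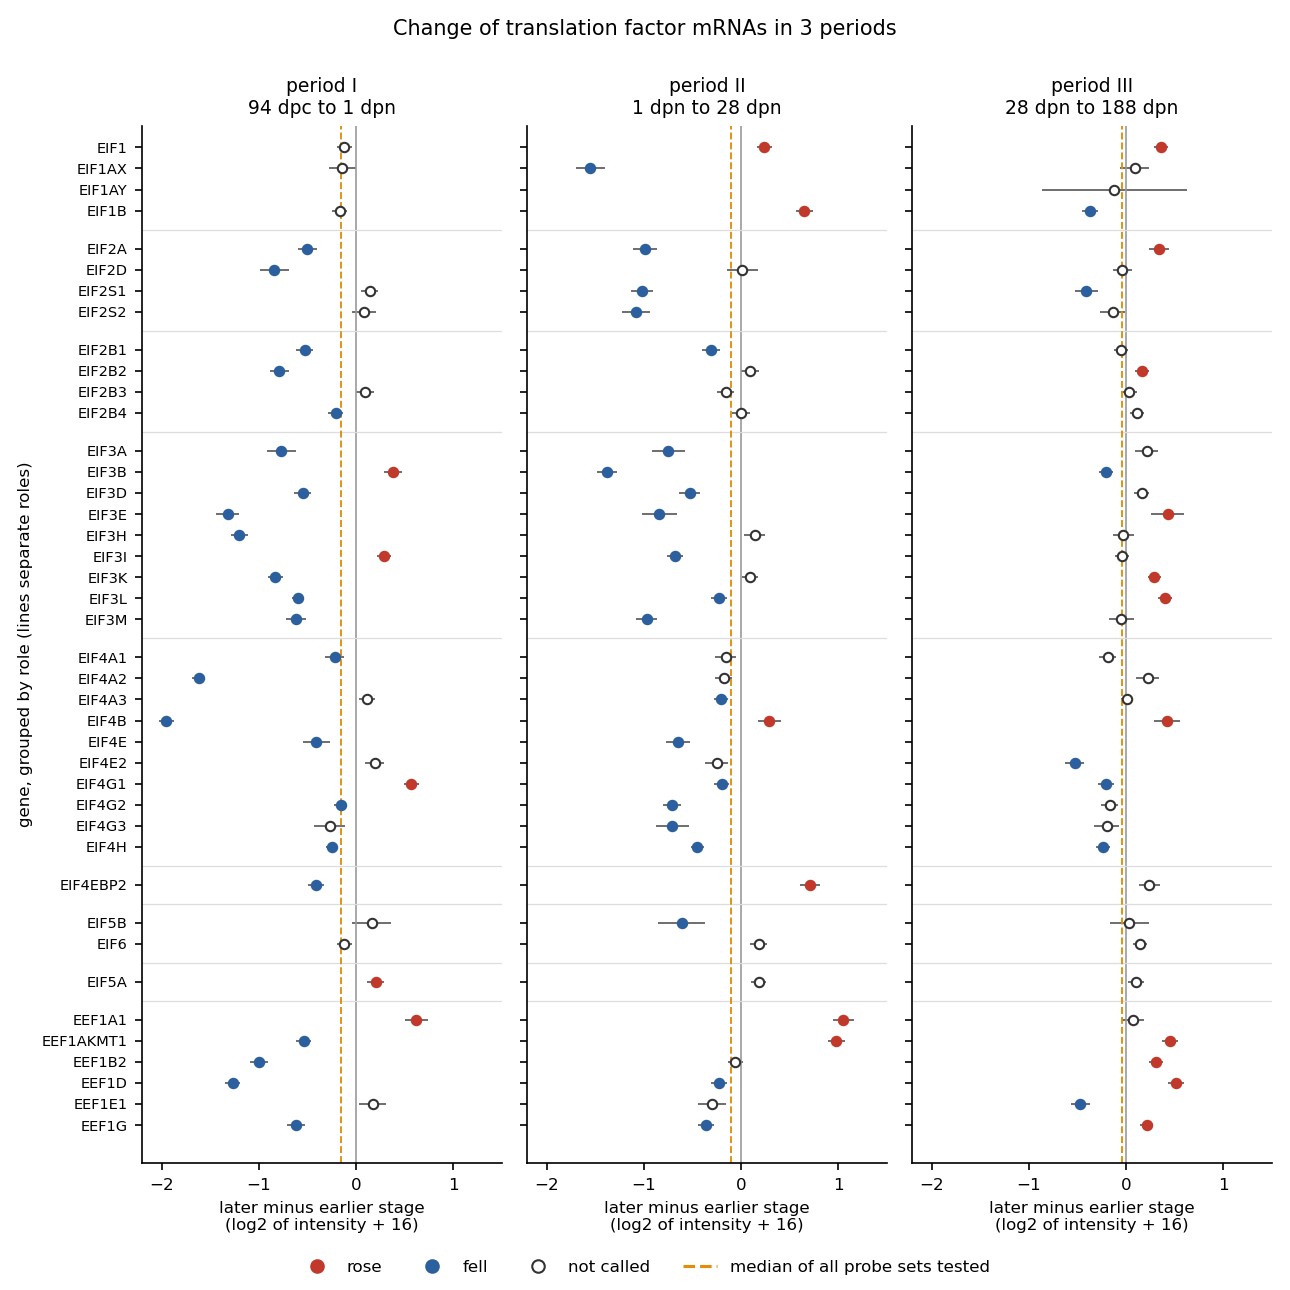
Change of each factor gene (later minus earlier stage, log2 of intensity + 16, horizontal axis, with SE) in the 3 periods, 1 row per gene and grouped by role. Filled points passed the test (red rose, blue fell), open points did not, and the dashed line marks the median of all probe-sets tested; EIF4B and EIF4A2 lie farthest left in period I, EIF1AX and EIF3B in period II.

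The eIF4 factors held the largest falls at birth. EIF4B, which stimulates the helicase eIF4A, had a lowest, median and highest level of 12.68, 13.04 and 13.27 in the fetuses and of 10.53, 11.09 and 11.50 in the newborns. The stages were apart by more than the whole spread within either. EIF4B fell by 1.95 ± 0.08 (SE), or 3.86-fold (adjusted p = 5.5e-19, limma), and its other probe-set fell by 1.40 ± 0.10. Levels of EIF4B stayed below the fetal range in every older animal, with 10.73, 11.28 and 12.12 at 28 dpn and 11.16, 11.73 and 12.60 at 188 dpn. The brightest EIF4B probe-set rose in period III by 0.42 ± 0.13 (adjusted p = 0.011, limma). In period II its probe-sets went opposite ways, one rising by 0.29 ± 0.12 and the other falling by 0.39 ± 0.12. The rise was 0.25 (adjusted p = 0.072, limma) with quantile normalization and 0.65 (adjusted p = 0.12) with the actin ratio as a covariate.

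Of the paralogous helicases that unwind the leader, EIF4A2 fell far more than EIF4A1 in period I. EIF4A2 ranged from 14.45 through 14.68 to 14.89 in the fetuses and from 12.76 through 12.99 to 13.37 in the newborns, with no overlap. It fell by 1.62 ± 0.07, or 3.08-fold (adjusted p = 2.7e-19, limma), and its later changes of -0.18 and 0.22 were not called, although with quantile normalization it fell by 0.39 in period II (adjusted p = 0.0013). EIF4A1 spanned 12.19, 12.45 and 12.75 at 94 dpc and 11.58, 12.26 and 12.75 at 1 dpn, so the newborns reached the top of the fetal range. Its fall of 0.22 ± 0.10 was called by a narrow margin (adjusted p = 0.048, limma) and was not called without the least correlated animal of each stage (-0.19, adjusted p = 0.098), with median centring (-0.05, adjusted p = 0.68) or once the actin ratio was a covariate (-0.18, adjusted p = 0.25). Within animals the difference EIF4A1 minus EIF4A2 rose by 1.40 ± 0.12 in period I (adjusted p = 4.7e-05 over 14 differences, two-sided permutation test, from the smallest p that 100000 permutations can give). It fell by 0.41 ± 0.16 in period III (adjusted p = 0.021, permutation test), and with quantile normalization this was -0.33 (adjusted p = 0.066). EIF4A3, the helicase of the exon junction complex, changed by 0.11 ± 0.08 in period I, which was not called, and with median centring it rose by 0.28 (adjusted p = 0.0072, limma).

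The scaffolds that hold cap and helicase together split in period I. EIF4G1 spanned 10.81, 11.09 and 11.33 in the fetuses and 11.21, 11.55 and 12.04 in the newborns. The newborns sat higher with a small overlap, and the rise was 0.57 ± 0.08 (adjusted p = 1.9e-07, limma). EIF4G2, a relative that does not bind eIF4E, fell by 0.16 ± 0.07 (adjusted p = 0.041, limma), a change of 0.01 with median centring, and EIF4G3 changed by -0.27 ± 0.16, which was not called. The difference EIF4G1 minus EIF4G2 rose by 0.74 ± 0.09 in period I and by a further 0.50 ± 0.11 in period II (adjusted p = 7e-05 and 0.00025, permutation tests). It was read from the brightest EIF4G1 probe-set, whereas the other EIF4G1 probe-set fell more than EIF4G2 in period II. EIF4G2 went from 13.11, 13.39 and 13.86 at 1 dpn to 12.23, 12.72 and 13.02 at 28 dpn, with no overlap, a fall of 0.71 ± 0.09. EIF4G1 fell by 0.20 ± 0.08 in period II (adjusted p = 0.032, limma). This call was lost without the least correlated animal of each stage (-0.19, adjusted p = 0.061), and the sign turned with median centring (0.11). The other EIF4G1 probe-set rose by 0.42 ± 0.11 in period I. It fell by 1.08 ± 0.09 in period II without overlap (adjusted p = 3.6e-12, limma). The fall of the brightest EIF4G1 probe-set in period III, 0.21 ± 0.08, was lost in the same way (-0.19, adjusted p = 0.051).

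EIF4E, which binds the cap, and EIF4EBP2, which keeps eIF4E from eIF4G, moved apart after birth where EIF4EBP2 was read from its brightest probe-set. EIF4E spanned 6.97, 7.64 and 8.42 at 1 dpn and 6.66, 7.02 and 7.32 at 28 dpn, not far above the background of 6.29 read from the array's tag controls. It fell by 0.65 ± 0.12 in period II (adjusted p = 3.5e-05, limma), after a fall of 0.41 ± 0.14 in period I that was not called with either other scaling. With the actin ratio as a covariate the change in period II was -0.80 and was not called (adjusted p = 0.071). EIF4EBP2 spanned 9.74, 10.27 and 10.57 at 1 dpn and 10.38, 11.01 and 11.38 at 28 dpn, with little overlap. It rose by 0.71 ± 0.10 (adjusted p = 4.7e-07, limma), after falling by 0.41 ± 0.08 in period I. The difference EIF4EBP2 minus EIF4E changed by 0.00 ± 0.17 in period I and rose by 1.36 ± 0.17 in period II (adjusted p = 4.7e-05, permutation test). EIF4EBP2 has 5 probe-sets: in period I 2 of them rose, 1 fell and 2 were not called. In period II those called, 2 of 5, both rose. The others changed by -0.08, -0.25 and -0.18 there and were not called. In period III the brightest changed by 0.24 ± 0.11 and was not called. The other probe-sets rose in period III, by 0.32, 0.39, 0.70 and 0.60.

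EIF4H, which like eIF4B aids the helicase, fell in each period, by 0.25 ± 0.06, 0.45 ± 0.07 and 0.24 ± 0.07. The last change was -0.18 (adjusted p = 0.056, limma) with median centring. The other EIF4H probe-set fell by 0.42 ± 0.14 in period I, and its later changes of -0.17 and 0.20 were not called. EIF4E2, a cap-binding relative linked to repression, fell by 0.53 ± 0.10 in period III (adjusted p = 5.5e-05, limma). Of its other probe-sets, the brighter changed by -0.50 in that period, which was not called. The dimmer went from 6.09, below the background, to 6.80 and was not tested. Over the 10 tested eIF4 genes 6 fell and 1 rose in period I, where with median centring 2 fell and 3 rose.

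**Figure D2:**
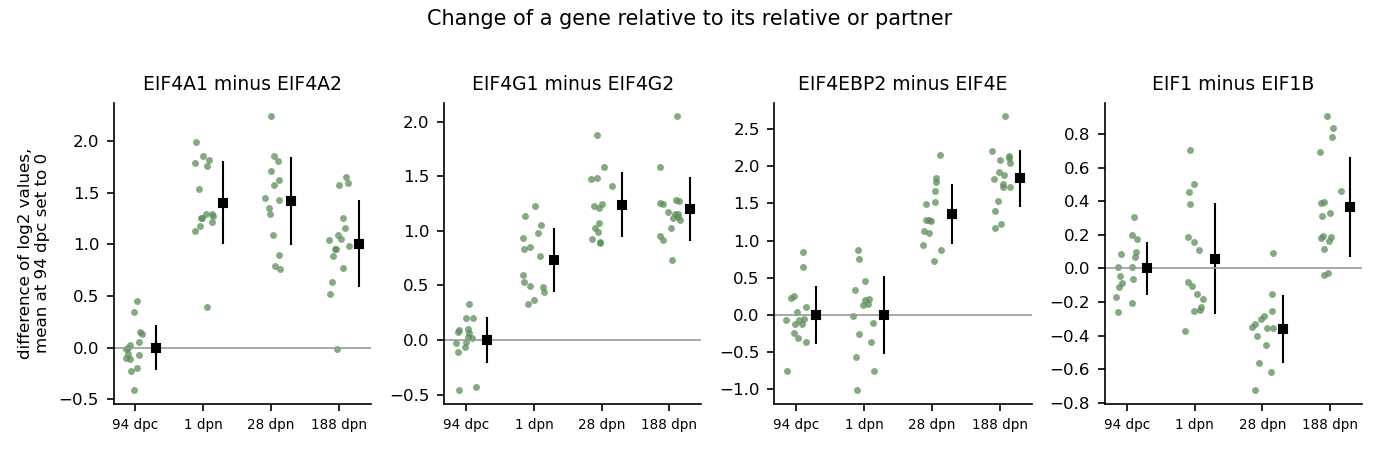
Difference between the log2 values of the members of a pair in each animal (points), with the mean at 94 dpc set to 0, by stage; squares and bars are mean and SD. Each gene is read from its brightest probe-set. EIF4A1 minus EIF4A2 steps up by 1.40 at birth and EIF4EBP2 minus EIF4E by 1.36 from 1 to 28 dpn.

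Among the 9 measured subunits of eIF3, the scaffold on the small ribosomal subunit, 7 fell and 2 rose in period I, with a median change of -0.62. The count was the same under both other scalings. EIF3E had 12.48, 12.90 and 13.27 in the fetuses and 10.95, 11.61 and 12.13 in the newborns. It fell by 1.32 ± 0.12 (adjusted p = 2.2e-11, limma), and no newborn reached the lowest fetus. EIF3H, which spanned 12.99 to 13.40 and then 11.55 to 12.61, fell by 1.20 ± 0.09, again without overlap. EIF3K fell by 0.83 ± 0.08, EIF3A by 0.77 ± 0.15, EIF3M by 0.62 ± 0.10, EIF3L by 0.60 ± 0.06 and EIF3D by 0.55 ± 0.09. EIF3D, EIF3K, EIF3L and EIF3M are given to complete the complex.

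The subunits that rose were EIF3B and EIF3I. Both are WD-repeat proteins which with EIF3G form a module outside the octamer that holds EIF3A, EIF3E, EIF3H, EIF3K, EIF3L and EIF3M. EIF3B went from 9.83, 10.23 and 10.45 in the fetuses to 10.10, 10.47 and 11.25 in the newborns, a rise of 0.38 ± 0.09 (adjusted p = 0.0008, limma) with much overlap. EIF3I rose by 0.29 ± 0.07 (adjusted p = 0.00089, limma), from a median of 11.98 to one of 12.26. That these subunits share a module was noticed after their values were seen.

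In period II 7 eIF3 subunits fell and none of the 9 rose, and with median centring 5 fell and 2 rose. EIF3B dropped to 8.74, 9.18 and 9.47 at 28 dpn, below every newborn and every fetus. It fell by 1.38 ± 0.10 (adjusted p = 3.4e-13, limma), and by 1.37 with the actin ratio as a covariate (adjusted p = 0.00039). EIF3I fell by 0.68 ± 0.08, also without overlap, reaching 11.29, 11.60 and 11.83. EIF3M fell by 0.97 ± 0.11, EIF3E by 0.84 ± 0.18 and EIF3A by 0.75 ± 0.17; with the actin ratio as a covariate none of these falls passed the threshold (adjusted p = 0.054, 0.22 and 0.32). EIF3H and EIF3K, which had fallen at birth, changed by 0.14 ± 0.11 and 0.09 ± 0.08 in period II, neither of them called.

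In period III EIF3L rose by 0.40 ± 0.07, EIF3K by 0.29 ± 0.07 and EIF3E by 0.43 ± 0.17, whereas EIF3B fell by 0.21 ± 0.07, a fall not called with either other scaling. The rise of EIF3E was 0.38 (adjusted p = 0.067, limma) without the least correlated animal of each stage.

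**Figure D3:**
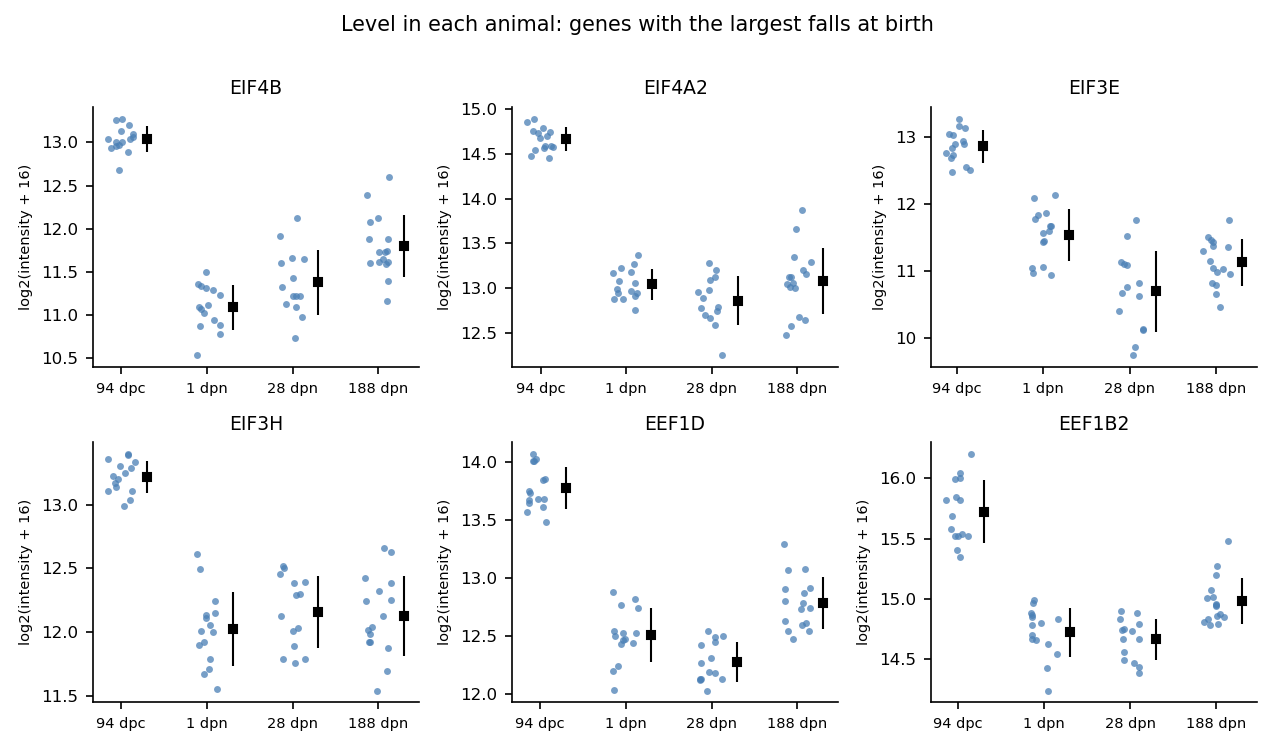
Level of 6 factor genes in each animal (points; log2 of intensity + 16) at the 4 stages, with mean and SD as squares and bars. In all 6 panels every fetus lies above every newborn.

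The subunits of eIF2 fell over suckling. EIF2S1, the alpha subunit whose phosphorylation restrains initiation under stress, spanned 11.11, 11.41 and 11.67 in the fetuses and 10.99, 11.55 and 12.00 in the newborns. The change of 0.14 ± 0.09 was not called in period I; with median centring it was 0.31 (adjusted p = 0.0038, limma). At 28 dpn EIF2S1 had 9.95, 10.59 and 11.04, with barely any overlap with the newborns, a fall of 1.02 ± 0.11 (adjusted p = 1.2e-09, limma). EIF2S1 fell further in period III, by 0.41 ± 0.12 (adjusted p = 0.0048, limma). EIF2S2, the beta subunit, went from 10.49, 11.17 and 11.83 at 1 dpn to 9.21, 10.07 and 10.59 at 28 dpn. It fell by 1.08 ± 0.14 (adjusted p = 9.3e-08, limma), and by 0.90 with the actin ratio as a covariate (adjusted p = 0.078). Both falls were called under either other scaling.

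EIF2A and EIF2D, which can deliver tRNA apart from eIF2, fell at birth by 0.50 ± 0.10 and 0.84 ± 0.15. EIF2A fell again in period II, by 0.99 ± 0.12, and rose in period III by 0.34 ± 0.10. One newborn had an EIF2D level of 6.29, at the background, while the median was 8.27.

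Of the eIF2B exchange factor 3 of 4 subunits fell in period I: EIF2B2 fell by 0.79 ± 0.10, EIF2B1 fell by 0.53 ± 0.09 and EIF2B4 fell by 0.21 ± 0.08. EIF2B3 changed by 0.09 ± 0.09 and was not called. With either other scaling 2 fell and 1 rose. In period II the fall of EIF2B1 by 0.31 ± 0.09 was the only call among these brightest probe-sets, and its change was 0.00 with median centring and -0.04 with the actin ratio as a covariate. The other EIF2B1 probe-set was not called in period I and fell by 1.02 ± 0.14 in period II (adjusted p = 1.5e-07, limma). In period III EIF2B2 alone was called, with a rise of 0.16 ± 0.07 (adjusted p = 0.046, limma) that was 0.14 (adjusted p = 0.096) without the least correlated animal of each stage.

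Among the factors that help the small subunit find the start codon, EIF1AX changed most. It spanned 9.74, 10.31 and 10.84 in the fetuses, 9.67, 10.18 and 11.16 in the newborns, 8.11, 8.65 and 9.33 at 28 dpn and 7.63, 8.74 and 9.50 at 188 dpn. No animal of 28 or 188 dpn reached the lowest newborn. In period II EIF1AX fell by 1.55 ± 0.15, or 2.94-fold (adjusted p = 1.9e-10, limma), and fell by 1.72 with the actin ratio as a covariate (adjusted p = 0.0021). The other EIF1AX probe-set was not called, either in a period or among the 4 stages (adjusted p = 0.14, limma).

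EIF1 and its close relative EIF1B moved unequally after birth. EIF1B had 11.14, 11.53 and 12.02 at 1 dpn and 11.82, 12.14 and 12.47 at 28 dpn, with a rise of 0.65 ± 0.09 (adjusted p = 2.4e-07, limma). It then fell by 0.37 ± 0.08 in period III, when EIF1 rose by 0.36 ± 0.07. The difference EIF1 minus EIF1B fell by 0.42 ± 0.10 in period II (adjusted p = 0.00061, permutation test) and rose by 0.73 ± 0.09 in period III (adjusted p = 4.7e-05, permutation test). The probe-sets of EIF1 disagreed in period II, one rising by 0.24 ± 0.08 and the other falling by 0.34 ± 0.11. With the actin ratio as a covariate the first changed by 0.09, which was not called (adjusted p = 0.78, limma).

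EIF1AY, the Y-linked counterpart of EIF1AX, had values in separate clusters at every stage, with no animal between 6.64 and 8.40. The upper cluster held 7 of 15 fetuses, 7 of 15 newborns, 6 of 14 animals at 28 dpn and 8 of 16 at 188 dpn. Its mean SD within a stage was 2.43, beside 0.41 for the brightest EIF1AX probe-set. No difference among stages was called (adjusted p = 0.96, limma), and animals were not split by it.

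**Figure D4:**
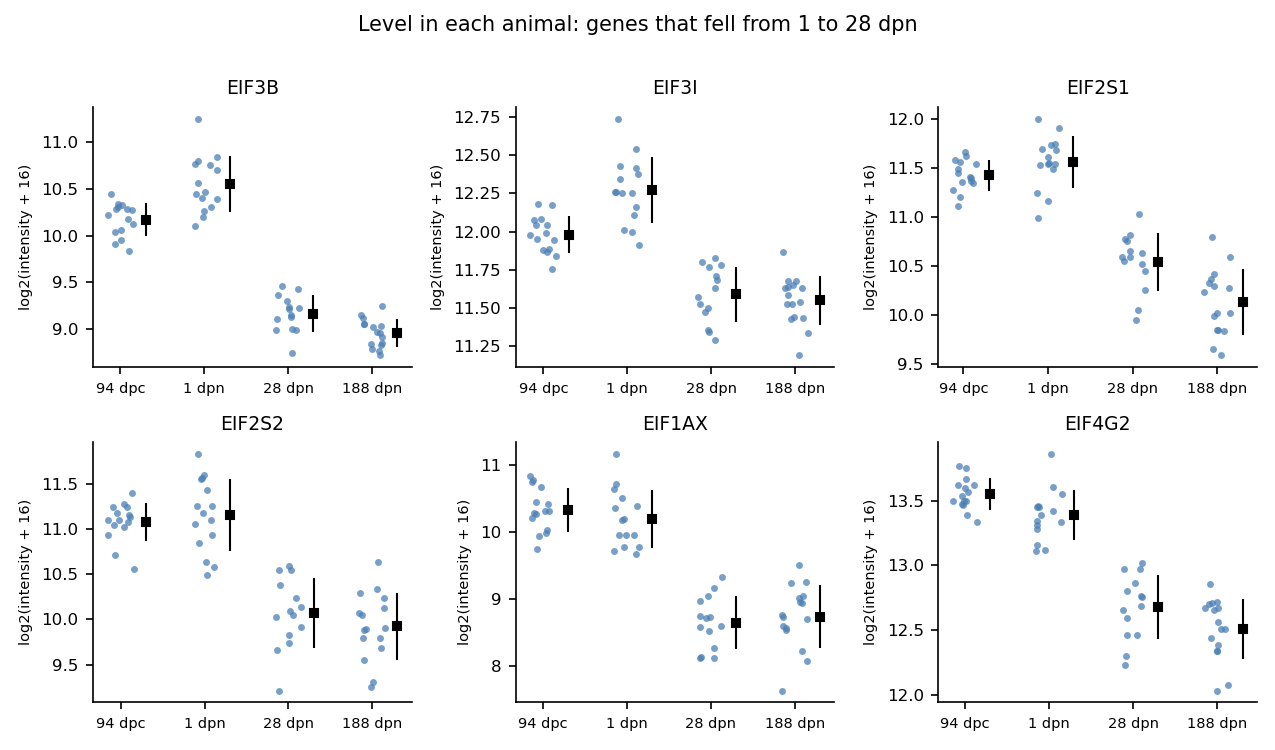
Level of 6 factor genes in each animal (points; log2 of intensity + 16) at the 4 stages, with mean and SD as squares and bars. EIF3B, EIF3I, EIF1AX and EIF4G2 do not overlap between 1 and 28 dpn, and EIF2S1 and EIF2S2 overlap slightly.

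Among the elongation factors, counted by gene, EEF1D and EEF1B2 changed most at birth. With EEF1G they are subunits of eEF1B, which recharges eEF1A with GTP. EEF1D had 13.48, 13.73 and 14.07 in the fetuses and 12.03, 12.50 and 12.88 in the newborns. EEF1B2 had 15.35, 15.69 and 16.20 and then 14.24, 14.78 and 14.99. For both genes every newborn was below every fetus. EEF1D fell by 1.27 ± 0.08 (adjusted p = 1.7e-14, limma), EEF1B2 by 1.00 ± 0.09 (adjusted p = 2.5e-11) and EEF1G by 0.62 ± 0.09 (adjusted p = 1.7e-07). In period III they rose, EEF1D by 0.51 ± 0.08, EEF1B2 by 0.31 ± 0.07 and EEF1G by 0.21 ± 0.07. With quantile normalization the rises of EEF1B2 and EEF1G were 0.05 and 0.02 and were not called (adjusted p = 0.64 and 0.84). In period II EEF1B2 changed by -0.06 ± 0.08, which was not called, and with median centring by 0.26 (adjusted p = 0.0042, limma).

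EEF1AKMT1, which methylates a lysine of eEF1A, took another course. It had 10.40, 10.72 and 11.00 in the fetuses, 9.74, 10.28 and 10.54 in the newborns, 10.87, 11.21 and 11.56 at 28 dpn and 11.22, 11.60 and 12.09 at 188 dpn. The newborns were lowest, and did not overlap with the animals of 28 dpn. EEF1AKMT1 fell by 0.54 ± 0.08 in period I, rose by 0.98 ± 0.09 in period II (adjusted p = 2.2e-11, limma) and rose by 0.45 ± 0.08 in period III. EEF1E1, which sits in the multi-tRNA synthetase complex, fell in period III by 0.47 ± 0.10.

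EEF1A1 itself, the tRNA carrier, gave no single direction. The brightest fitted probe-set had 9.46, 10.16 and 10.48 in the fetuses, 10.01, 10.67 and 11.24 in the newborns and 11.37, 11.67 and 12.24 at 28 dpn. It rose by 0.62 ± 0.12 in period I and by 1.05 ± 0.11 in period II, and a second one rose by 0.62 ± 0.12 and 1.13 ± 0.11. The third fell by 1.54 ± 0.12 in period I, from 8.20, 8.74 and 9.12 to 6.52, 7.14 and 7.88. The control probe-set for the middle of the transcript changed by -0.37 ± 0.09, -0.47 ± 0.06 and 0.20 ± 0.05 in the 3 periods (adjusted p = 0.00054, 3e-05 and 0.00027, two-sided permutation tests chosen after seeing the data). This control averaged 16.1, 15.73, 15.26 and 15.47 in order of age. The probe-set that stands for the gene averaged 10.05, 10.67, 11.72 and 11.79. EEF1A1 was thus counted as risen in periods I and II by a probe-set far dimmer than the control, which fell in both. A further 9 probe-sets carry the older name EF1ALPHA and are no members. Of the 7 of these tested in period I 5 fell and 1 rose, and in period II 1 of 6 fell and 3 rose, one of them by 4.53. The brightest of the 7 fell in period I from a mean of 16.08 to 15.68, and the next brightest from 15.32 to 14.54. The one that rose in period I was dimmer, at 9.17 and then 9.56. Which transcript each of these probe-sets reads was not tested.

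EIF5A, which helps the ribosome past stretches that stall it, also depended on the probe-set. One had 10.99, 11.72 and 12.19 in the fetuses, 12.52, 12.87 and 13.50 in the newborns and 11.30, 11.73 and 12.06 at 28 dpn. The newborns stood above both neighbouring stages without overlap, with a rise of 1.26 ± 0.11 (adjusted p = 2e-11, limma) and a fall of 1.21 ± 0.09 (adjusted p = 1.3e-12). The brightest one rose by 0.20 ± 0.09 in period I (adjusted p = 0.04, limma), a call lost without the least correlated animal of each stage (adjusted p = 0.057) and with quantile normalization. Its change in period II was 0.18 ± 0.08 and was not called, but it was with median centring (0.49, adjusted p = 8.8e-06, limma), with the filter in every animal (0.18, adjusted p = 0.049) and with a trended, robust prior (0.18, adjusted p = 0.037). DHPS, the first enzyme of the hypusine modification that eIF5A needs, fell by 0.60 ± 0.09, then rose by 0.34 ± 0.10 and 0.56 ± 0.09.

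EIF5B, which joins the subunits, was called only in period II, with a fall of 0.61 ± 0.24 (adjusted p = 0.025, limma) that was not called under either other scaling; its other probe-sets stayed near the background. EIF6, which keeps the subunits apart, was not called in any period, its changes being -0.12 ± 0.08, 0.18 ± 0.09 and 0.14 ± 0.07. With median centring it rose in periods II and III (0.49 and 0.20), and with quantile normalization it fell by 0.20 in period I.

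**Figure D5:**
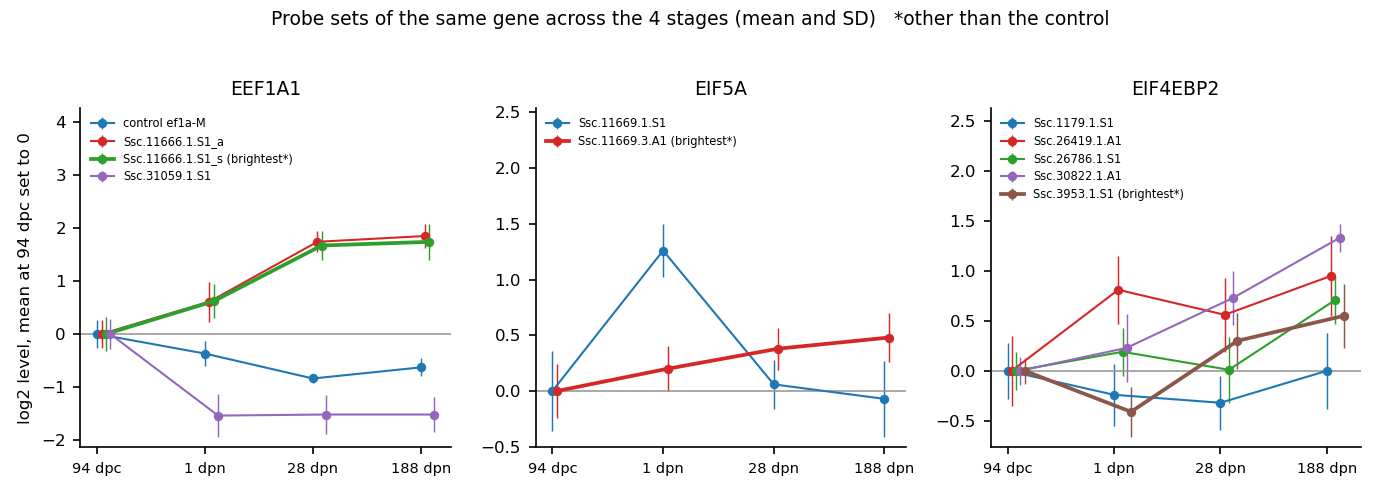
Mean level of each probe-set of EEF1A1, EIF5A and EIF4EBP2 at the 4 stages (log2 of intensity + 16, mean at 94 dpc set to 0; bars are SD). For EEF1A1, EIF5A and EIF4EBP2 the probe-sets of 1 gene part at birth or soon after.

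Genes of the translation machinery outside the factors gave a background to these changes. Of 62 tested genes of cytosolic ribosomal proteins 54 fell and 1 rose in period I, with a median change of -0.60, beside shares of 35.6% and 29.8% of all genes. With quantile normalization 43 fell and 8 rose, with a median of -0.24. In period II 35 fell and 5 rose, and with median centring 9 fell and 24 rose. In period III 46 rose and 3 fell, while with quantile normalization 4 rose and 5 fell. The tRNA synthetases, which charge the tRNAs, fell in 13 of 15 genes in period II and none rose, with a median of -0.56; under median centring 7 fell. EPRS fell by 1.62 ± 0.14 and DARS by 1.69 ± 0.18.

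Of 13 tested genes that control translation 7 fell and 3 rose in period I. With median centring 5 fell and 4 rose, and with quantile normalization 6 fell and 3 rose. PABPC1 and PABPC4, which bind the poly(A) tail and touch eIF4G, fell by 1.08 ± 0.07 and 1.42 ± 0.10. EIF2AK2, the kinase PKR that phosphorylates eIF2 alpha, rose by 1.07 ± 0.23 in period I and fell by 1.48 ± 0.22 and 0.82 ± 0.16 afterwards. RHEB, which activates the kinase mTOR, rose by 0.55 ± 0.07 and then fell by 0.87 ± 0.08 and 0.40 ± 0.09. EPRS, DARS, DHPS and the genes named so far in this paragraph were chosen after their values were seen. Of the 5 tested mitochondrial factors TUFM, the mitochondrial counterpart of eEF1A, rose in period I by 0.55 ± 0.09, 1 fell and 3 were not called. With median centring 3 rose and with quantile normalization 2 rose, and 0 fell with either.

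Markers of hepatocytes and of other cells moved over the same periods. In period I, when 23 factor genes fell, 6 of 6 erythroid markers fell, with a median of -3.12. No erythroid marker averaged below the background of 6.29 in the newborns, but RHCE and TFRC, at 6.87 and 6.80, were not far above it. The 3 neutrophil granule markers also fell, with a median of -2.57, from 10.02 to 11.68 over the fetuses to 7.53 to 10.42 over the newborns, and the 3 megakaryocyte and platelet markers fell with a median of -0.73. Of 3 macrophage markers 2 rose and 1 fell, and their mean went from 9.89 to 10.59. Endothelial markers fell in 2 of 3 genes, stellate and fibroblast markers in 1 of 3 and cell division markers in 3 of 7. With median centring 0 cell division markers fell, and with quantile normalization 1 fell. With either other scaling 1 stellate and fibroblast marker rose and 1 fell.

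In period II, when 21 factor genes fell, 6 of 8 hepatocyte markers fell and 1 rose, with a median of -0.44. ALB, which encodes albumin, fell by 0.79 ± 0.09. With median centring 4 hepatocyte markers fell and 2 rose, and with quantile normalization 3 fell and 3 rose. Cell division markers fell in 5 of 7 genes (median -0.89) and neutrophil granule markers in 3 of 3 (median -0.83), and with either other scaling 3 of the former and 1 of the latter fell. CD3D, the lymphocyte marker tested, rose by 1.47 ± 0.24, and 2 of the 3 erythroid markers tested rose. Endothelial markers rose in 2 of 3 genes and fell in 1, the stellate and fibroblast markers rose in 1 and fell in 1, and 1 of 3 macrophage markers fell.

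In period III, when 11 factor genes rose, 6 of 8 hepatocyte markers rose and 0 fell, with a median of 0.30, whereas 1 rose with quantile normalization. In the same period 7 of 7 cell division markers fell, their mean going from 8.20 at 28 dpn to 6.64 at 188 dpn, where CCNB1, CCNB2 and TOP2A were at the background. Macrophage markers fell in 2 of 3 genes, with a median of -0.79, and CD3D fell by 0.56 ± 0.16. The log2 3′ to 5′ ratio of the GAPDH control fell by 0.61 ± 0.05 in period I and rose by 0.38 ± 0.04 in period II. The part of these markers and controls in the changes of the factors was not tested.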

How the data were processed

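The authors deposited 1 linear intensity per probe-set and array, for which GCOS 1.1.1 is named in the submitters' processing notes. The trimmed mean of every array, leaving out 2% at each end, was between 500.1 and 500.2. The study's own tests used GCRMA values, which are on another scale. Intensities were raised by 16 and taken to log2. A probe-set was tested where it lay above the array median in at least 50% of the animals of 1 stage compared. Stages were compared with limma 3.58.1 in R 4.3.3 without covariates, and p-values were adjusted over all probe-sets. Differences between paralogues and partners were compared by permutation in Python 3.11.15. The code was tested on simulated data. Precision is limited by the number of arrays.

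Of the 41 genes 40 matched RefSeq by gene ID. No coordinates or sequences are given. Named genes were the 2 largest called rises and falls per role and period and a fixed list of core factors. Members, lists and tests were chosen with earlier results of these data known. Animals were grouped by the stage in the labels. Alternatives were other pseudocounts, filters, scalings, samples, covariates and priors.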

Additional observations from a re-analysis of the deposited data

How the results depend on the processing

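Median centring changed most counts. With it 16 factor probe-sets and 10 genes rose in period I. In period II 17 probe-sets and 13 genes rose and 16 and 12 fell. In period III 5 probe-sets and 4 genes fell. With the actin ratio as a covariate 8 probe-sets and 6 genes fell in period II, and with the mean of all probe-sets of a gene 3 genes rose in that period. Under median centring EIF4G2 changed by 0.01 in period I. In period II EEF1B2 then changed by 0.26, EEF1D by 0.09, EIF2B1 by 0.00, EIF4A3 by 0.11 and EIF4G1 by 0.11. The reported changes of all these genes were below 0. Under median centring only that of EEF1B2 was called. The other 124 recomputed counts stayed within 1.5 times the reported ones. Of the recomputed changes of single genes and pairs, 780 kept their direction and call or were called neither way, 56 were no longer called and 15 became called. Leaving out the least correlated animal of each stage (94 dpc replicate 7, 1 dpn replicate 6, 28 dpn replicate 13 and 188 dpn replicate 8) ended the calls of EIF4A1 and EIF5A in period I, EIF4G1 in period II, and EIF2B2, EIF3E and EIF4G1 in period III. With no filter, which adjusts over more probe-sets, the calls of EIF4A1, EIF4G2 and EIF5A in period I, EIF4B and EIF4G1 in period II, and EIF2B2, EIF3B, EIF3E and EIF4G1 in period III ended. The actin ratio as a covariate ended those of EIF4A1, EIF4E, EIF4G2 and EIF5A in period I, of EEF1D, EEF1G, EIF1, EIF2B1, EIF2S2, EIF3A, EIF3E, EIF3M, EIF4A3, EIF4B, EIF4E, EIF4G1, EIF4G3 and EIF5B in period II, and of EEF1G, EIF3B, EIF3E and EIF4H in period III. The cause of the other shifts was not tested. No paired analysis was possible because the labels carry no litter and replicate numbers were given in accession order. Probe-sets near the background of 6.29, such as EIF4E after birth, limit what a change can show.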
